A study of Mus musculus with 3 samples.

Results

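The phagocyte NADPH oxidase is described here through 6 of its genes, Cybb, Cyba, Ncf1, Ncf4, Rac1 and Rac2, chosen by gene symbol in the GENCODE M21 annotation out of 55536 genes in the gene tables. The rule uses symbols and no measured value, though the genes were proposed with earlier results of these data known. The material is cytosolic RNA, depleted of ribosomal RNA, of primary macrophages that were grown from C57BL/6J bone marrow. All cells had been given lipid A, the lipid anchor of bacterial endotoxin and a TLR4 ligand, at 100 ng/ml for 120 min. The 3 libraries form 1 group, numbered as biological replicates 1, 2 and 3, so there is no untreated, nuclear or unfractionated sample and no effect of lipid A can be measured. The labels give 1 donor identifier for all of them and no sex or age, and do not say whether separate animals were used. The SDs below therefore cover the spread between these libraries, which may be technical.

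The oxidase moves electrons from cytosolic NADPH across the membrane to oxygen and so makes superoxide in the phagosome. Its catalytic core is flavocytochrome b558, a heterodimer of the Cybb product (NOX2, also called gp91phox) and the Cyba product (p22phox). In resting cells the regulatory proteins stay in the cytosol. On stimulation, cytosolic subunits that include the organizer p47phox (Ncf1) and p40phox (Ncf4), and a Rac GTPase bound to GTP (Rac1 or Rac2) join the core and switch it on. Inherited loss of the core or of its organizer causes chronic granulomatous disease, in which phagocytes ingest microbes and fail to kill many of them.

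Depth was 31152786, 114031592 and 59693298 expected counts in replicates 1 to 3. TPM, the authors' count scaled by transcript length and set to a fixed total per library, is the scale of every level below unless another is named. 7SL RNA (Rn7s1 and Rn7s2) took 56.9%, 67.0% and 57.3% of TPM in replicates 1 to 3, so a gene with the same share of mRNA in every library is lower in TPM in replicate 2. Macrophage markers were present, with 8 of 8 detected, meaning that no library was below 1 TPM, led by Lyz2 at 4039 ± 316 TPM and Cd68 at 545 ± 20.5 TPM (SD, n = 3 each). Most markers of other cell types were not detected. Cd4, S100a9 and Csf3r were among those that lay above 6.84 TPM, the median of detected protein-coding genes. By the same rule 37.6% of the 22015 nuclear-encoded protein-coding genes were detected. In the neutrophil list 4 of 12 were detected, led by S100a9 at 13.5 ± 1.72 and Csf3r at 13.3 ± 1.80 TPM, the summed list was at 40.1, 33.4 and 43.6 TPM in replicates 1 to 3, and Ly6g had 0 counts. In the eosinophil list 1 of 5 was (Ccr3 at 3.33 ± 0.795 TPM; Siglecf was at 0.0733 ± 0.0208), in the T cell list 1 of 6 (Cd4 at 18.1 ± 0.666 TPM; Trac was at 0.0133 ± 0.0153), in the endothelial and stromal list 1 of 6 (Kdr at 2.45 ± 0.430 TPM; Cdh5 was at 0.230 ± 0.128), and in the B cell list 0 of 5 (highest Cd79b at 0.393 ± 0.0208 TPM and Cd79a at 0.0367 ± 0.0153; SD, n = 3 each). The part of such cells in the levels below was not tested. In bulk RNA, fewer cells of a type and less RNA per cell cannot be told apart.

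All 6 oxidase genes were expressed, and those of the membrane subunits had the highest TPM. Each was detected by the rule above, as were 15.7% of all genes and 37.6% of the 22015 nuclear-encoded protein-coding genes. All 6 also passed 10 TPM in every library. By mean level the order was Cyba, Cybb, Rac1, Ncf1, Rac2, Ncf4, which ranked 68, 158, 400, 525, 625 and 1226 among the nuclear-encoded protein-coding genes. Their median was 82.5 TPM, beside a median of 6.84 TPM over the 8281 protein-coding genes detected by the same rule. Together they took 0.353%, 0.379% and 0.359% of the TPM of nuclear-encoded protein-coding genes in replicates 1 to 3. The ranges of neighbours in this order did not overlap, but the places of Rac1, Ncf1 and Rac2 depended on which annotated transcripts were counted, as described below.

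**Figure D1:**
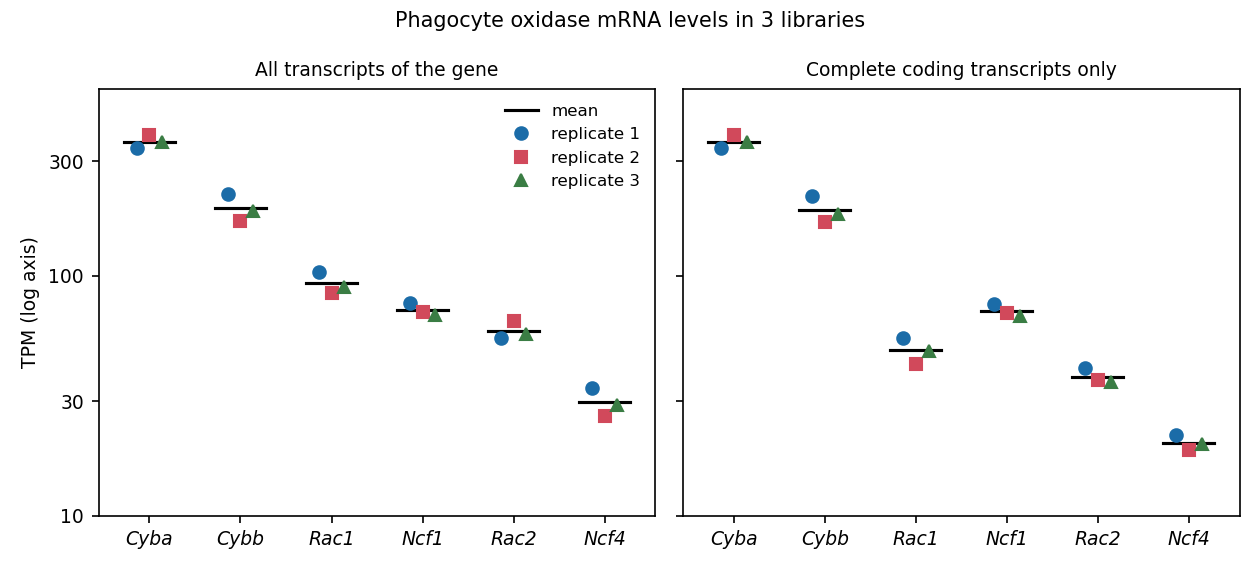
TPM of the 6 oxidase genes on a log axis, with 1 point per library and the mean as a bar, for all transcripts of each gene (left) and for transcripts with a complete annotated coding sequence (right). Cyba and Cybb lie highest in both panels and Ncf4 lowest, while Rac1 lies above Ncf1 on the left (mean 92.8 against 72.1 TPM) and below it on the right (48.9 against 71.3 TPM).

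Cyba, which encodes the small membrane subunit that stabilizes NOX2 and docks p47phox, was the highest. The gene lies on chromosome 8 of mm10 at 122424776 to 122432930, minus strand. It was at 340, 386 and 360 TPM in replicates 1 to 3, highest in replicate 2 and lowest in replicate 1. Cybb, which encodes the catalytic subunit that carries the haem and flavin groups, lies on the X chromosome at 9435252 to 9487771, minus strand. Its level was 218, 168 and 185 TPM, with the opposite order of libraries. Cyba exceeded Cybb in 3 of 3 libraries, by 1.91-fold on average, with a log2 ratio of Cybb over Cyba of -0.93 ± 0.28 (SD, n = 3). With 3 libraries an exact two-sided sign-flip permutation test cannot go below p = 0.25, the value reached by this and each of the other 6 member ratios computed. Cyba has a short mRNA, with effective lengths of 507 to 528 nt against 4431 to 4515 nt for Cybb, so the higher TPM of Cyba rested on fewer reads. It had 9717, 46731 and 21057 expected counts, and Cybb had 54620, 174509 and 93243.

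Both membrane subunits came almost wholly from 1 annotated transcript. Cybb-201, with 13 exons, held 98.4% ± 0.925 of the TPM of Cybb and encodes 570 amino acids. Cyba-201, with 6 exons and 192 codons, held 97.3% ± 0.169 of the TPM of Cyba. A form of Cyba without exon 4, Cyba-202, held 2.52% ± 0.141 (SD, n = 3 each). No stretch of 31 bases in Cybb-201 or Cyba-201 occurs in an annotated transcript of another gene, on either strand.

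The start of Cybb is shown because PU.1 and interferon regulatory factors are known to drive this gene in myeloid cells. In the RefSeq promoter table, on GRCm38.p6, the window chrX:9469275-9469574 on the minus strand covers 250 bases before the start site and the first 50 bases of the gene, and its start site is the first base of Cybb-201. Capitals mark the match to TTCCTC, the reverse complement of GAGGAA, an ETS core of the kind PU.1 binds.

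Cybb promoter: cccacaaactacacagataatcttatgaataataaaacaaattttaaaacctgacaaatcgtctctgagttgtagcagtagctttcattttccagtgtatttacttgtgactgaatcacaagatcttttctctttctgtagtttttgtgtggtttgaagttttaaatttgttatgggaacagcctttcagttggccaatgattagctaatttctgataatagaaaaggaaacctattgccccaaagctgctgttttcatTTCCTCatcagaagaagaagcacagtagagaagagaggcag

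The match begins 9 bases downstream of the start site. Searched on both strands, GAGGAA occurred in this window once, in neither the Cyba nor the Ncf1 window, and in 28.3% of the 32851 promoter windows in the table. The other 3 oxidase genes were not looked up elsewhere. A match is a description of the letters and not of a bound site. Other stretches with GGAA in the Cybb window, such as AAGGAA before the start site, were not searched and are unmarked. Sites for interferon regulatory factors were not searched either. The marked match is therefore not shown to be the PU.1 site of this promoter. Among 12 transcription factors known to act on oxidase genes, 8 were detected, beside 37.6% of nuclear-encoded protein-coding genes. The median of the list was 13.4 TPM. Irf1 was at 207 ± 4.94 TPM, Nfkb1 at 82.2 ± 8.80, Spi1, which encodes PU.1, at 75.9 ± 4.57, and Irf8 at 50.8 ± 7.65, while Hoxa9 was at 0.00667 ± 0.00577 TPM (SD, n = 3 each) and Hoxa10 had 0 counts.

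Of the cytosolic subunits, Ncf1 was higher than Ncf4. Ncf1 encodes p47phox, which carries the stimulus to the membrane once it is phosphorylated. It lies on chromosome 5 at 134220053 to 134229625, minus strand, and was at 77.3, 70.3 and 68.6 TPM in replicates 1 to 3. Ncf4 encodes p40phox, which binds phosphatidylinositol 3-phosphate on the phagosome. It lies on chromosome 15 at 78244801 to 78262580, plus strand, and was at 34.2, 26.1 and 29.0 TPM. The Ncf1 values all lay above the Ncf4 values, with a mean ratio of 2.43-fold and a log2 ratio of 1.28 ± 0.13 (SD, n = 3).

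Ncf1 has coding forms that differ by a stretch at the end of exon 10. The 390-codon form Ncf1-202 held 94.9% ± 0.910 of the TPM of Ncf1. Ncf1-201, which extends exon 10 in frame by 42 bases (14 codons) on chromosome 5 at 134221988 to 134222029, held 3.64% ± 0.648 (SD, n = 3 each). Both are shown around that junction, from the GENCODE M21 transcripts, with 20 flanking bases on either side in lower case and the extension in capitals.
Ncf1-202: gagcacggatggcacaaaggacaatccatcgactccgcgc
Ncf1-201: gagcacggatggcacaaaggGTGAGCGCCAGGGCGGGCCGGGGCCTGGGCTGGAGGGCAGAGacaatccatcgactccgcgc

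Ncf1-202 has no 31-base stretch of its own, and Ncf1-201 has 28. The exons of Ncf1 share 408 bases with those of Gtf2ird2 on the opposite strand, 11.1% of the exonic bases of Ncf1. Since the strand setting of the counting is not given in the sources used here, reads there cannot be assigned with certainty. Gtf2ird2 was at 1.41, 0.560 and 0.770 TPM.

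For Ncf4, a larger part of the level lay in short annotated transcripts with retained introns. The complete coding transcript Ncf4-201, of 10 exons and 339 codons, held 91.4% ± 1.46 of the expected counts of the gene but 68.2% ± 4.58 of its TPM. The retained-intron forms held 29.7% of TPM on 7.27% of counts (means of 3 libraries), mostly in Ncf4-204 and Ncf4-206, which are 336 and 540 nt long. Counting Ncf4-201 alone, Ncf4 was at 21.6, 18.8 and 20.0 TPM, and Ncf1 exceeded it 3.54-fold by the same rule.

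Both Rac GTPase genes were expressed, and Rac1 exceeded Rac2 on each scale that was examined. Rac1 is expressed in most cell types and Rac2 mainly in blood cells. Rac1 lies on chromosome 5 at 143503634 to 143528036, minus strand, and was at 104, 84.6 and 90.2 TPM in replicates 1 to 3. Rac2 lies on chromosome 15 at 78559167 to 78572783, minus strand, and was at 55.2, 64.7 and 57.1 TPM. The values did not overlap, with a log2 ratio of Rac2 over Rac1 of -0.65 ± 0.26, 1.57-fold in favour of Rac1 (SD, n = 3). In the second quantification deposited for each library, in the column layout of kallisto, the difference was 1.14-fold, and over complete coding transcripts 1.28-fold. The paralogs have similar proteins, but no 31-base stretch is shared between their annotated transcripts.

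A fragment model raised the TPM of Rac2. Rac2-203 is annotated as a coding transcript with an incomplete start, 254 nt long, and overlaps the last coding exons. It had 34.4, 365 and 112 expected counts in replicates 1 to 3, 1.001% ± 0.495 of the gene, yet held 34.5% ± 9.37 of its TPM (SD, n = 3 each) because its effective length was 45.5, 57.4 and 47.9 nt. The authors' credibility interval of the TPM of Rac2 in replicate 1 ran from 45.5 to 63.9. Without the fragment, the complete transcript Rac2-201 was at 41.2, 36.7 and 36.1 TPM, and replicate 2 was no longer the highest.

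**Figure D2:**
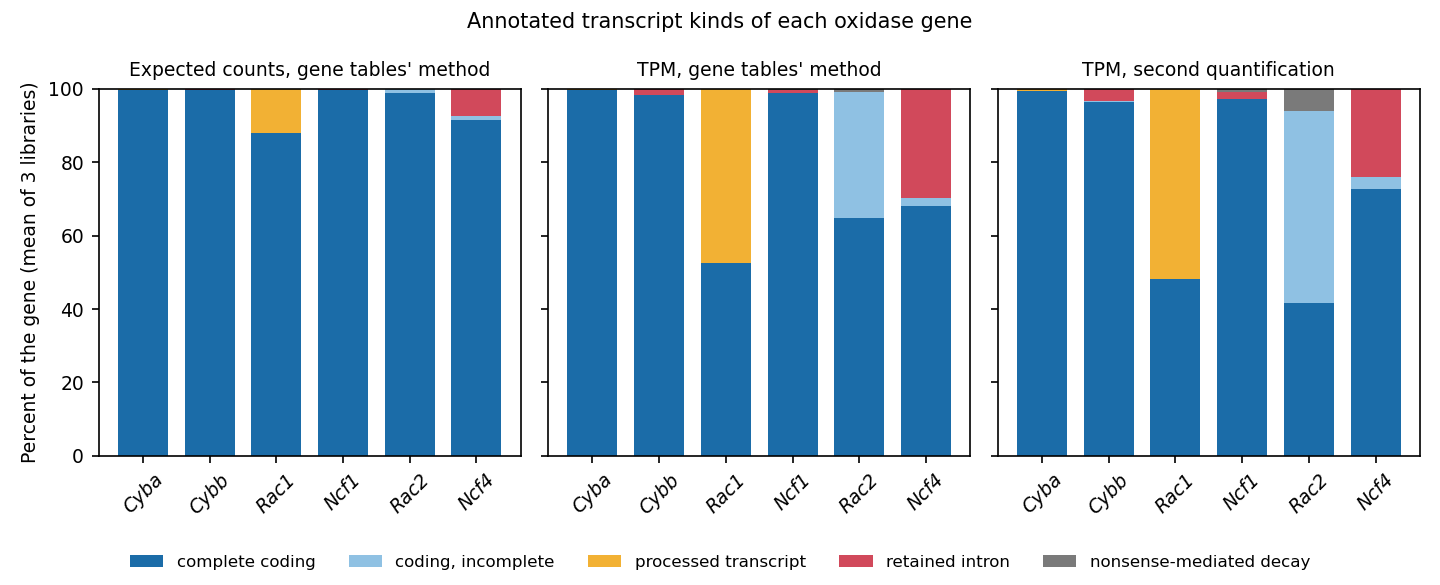
Percent of each oxidase gene held by kinds of annotated transcripts (stacked bars, means of 3 libraries), by expected counts, by TPM of the same method, and by TPM of the second quantification. Complete coding transcripts hold from 87.95% to 99.86% of the counts, while TPM gives 47.4% of Rac1 to processed transcripts, 34.5% of Rac2 to an incomplete coding model and 29.7% of Ncf4 to retained introns.

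In Rac1 the tables placed most counts on the coding form with an extra exon. Rac1-202, of 211 codons, held 66.6% ± 3.45 of the expected counts and 44.9% ± 2.28 of TPM. Rac1-201, the 192-codon form, held 21.4% ± 3.04 of the counts and 7.72% ± 1.19 of TPM. The largest share of TPM, 47.3% ± 1.69, went to Rac1-204, a processed transcript of 585 nt that starts at another first exon, lacks the extra exon and held 12.1% ± 0.832 of the counts (SD, n = 3 each). The extra exon is known in human cells as exon 3b of RAC1B, a splice form that cycles nucleotide faster than RAC1. In the mouse annotation it is exon 4 of Rac1-202, on chromosome 5 at 143509597 to 143509653, minus strand, and adds 57 bases (19 codons) in frame. The coding forms are shown around it with the exon in capitals.
Rac1-201: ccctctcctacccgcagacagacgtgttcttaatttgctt
Rac1-202: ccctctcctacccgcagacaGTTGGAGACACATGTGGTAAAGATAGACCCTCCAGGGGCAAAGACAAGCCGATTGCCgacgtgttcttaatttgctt

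These shares are not a measurement of the exon. Besides the exon, the annotated forms differ in their ends, since Rac1-201 runs to 4159 nt and Rac1-202 stops at 2325 nt. Of the 31-base stretches of each transcript, 86 of 2295 occur only in Rac1-202 and 43 of 4129 only in Rac1-201. The exons of Rac1 share 2309 bases with those of Daglb on the opposite strand, 51.4% of the exonic bases of Rac1. Daglb was at 10.4, 9.04 and 10.6 TPM. Reads across the exon's own junctions are not separate values in the tables, so inclusion of the exon was not tested.

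**Figure D3:**
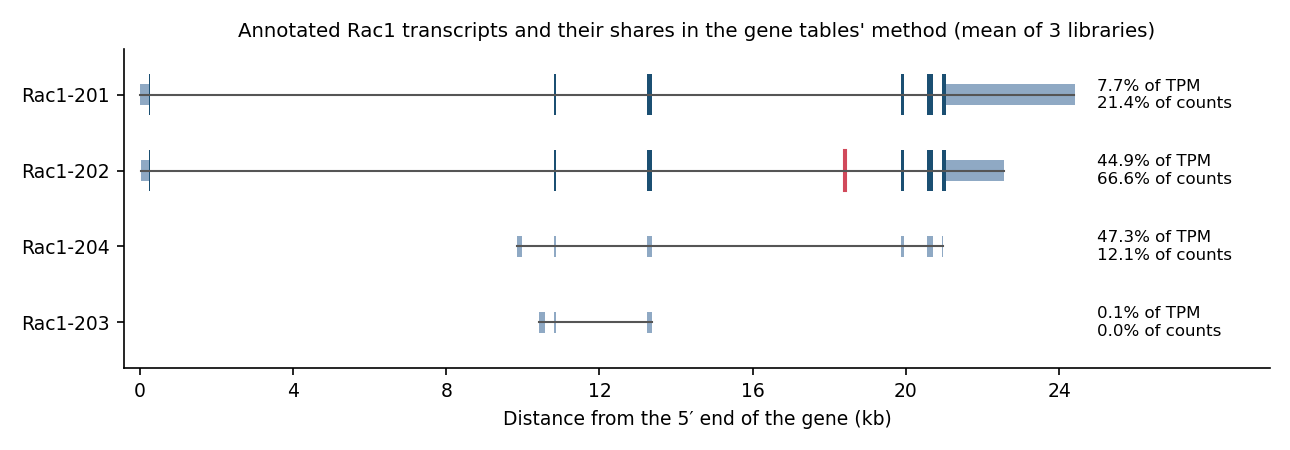
The 4 annotated Rac1 transcripts drawn to scale by distance from the 5′ end of the gene in kb, with exons as boxes, coding parts taller, introns as lines and the extra coding exon of Rac1-202 in red. The text at the right gives each transcript's mean share of TPM and of expected counts, 44.9% and 66.6% for Rac1-202.

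Counting only complete coding transcripts, a choice made after the data had been seen, the order became Cyba, Cybb, Ncf1, Rac1, Rac2, Ncf4. Ncf1 then exceeded Rac1 in 3 of 3 libraries by 1.46-fold, against a 1.29-fold excess of Rac1 over Ncf1 for all transcripts. In the second quantification Rac2 exceeded Ncf1, with a log2 ratio of Ncf1 over Rac2 of -0.33, while the gene tables put Ncf1 1.22-fold higher, with a log2 ratio of 0.29 ± 0.19 (SD, n = 3). The order of these 3 genes is therefore not fixed over all transcripts, and it depends on which transcripts are counted. Over complete coding transcripts, both quantifications gave Ncf1, Rac1, Rac2 in each library. By the second, Ncf1-202 was at 29.7, 27.3 and 18.0 TPM and Rac2-201 at 16.7, 15.0 and 10.2. Rac1-202 was at 21.25, 17.2 and 13.2 TPM, and Rac1-201 at 1.51, 1.12 and 0.958. The fragment Rac2-203 was at 18.8, 20.8 and 12.9 TPM there. Its part in the place of Rac2 was not tested. Cyba and Cybb remained the highest and Ncf4 the lowest in each of these estimates.

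On counts scaled by TMM factors, Rac1 and Ncf4 differed least between libraries and Cyba most. This order belongs to that scale. In TPM rescaled to nuclear-encoded protein-coding genes, Ncf1 spread least for its level, at 325 ± 11.5, and Rac2 most, at 267 ± 36.6. Rac1 was at 417 ± 21.3 and Cyba at 1637 ± 190 TPM on that rescaled measure (SD, n = 3 each). In CPM, the count as a share of the TMM-scaled library total, Rac1 was at 250, 252 and 249 in replicates 1 to 3, a ratio of highest to lowest library of 1.01. Ncf4 followed at 51.4, 53.7 and 51.4, a ratio of 1.04. Cybb had a ratio of 1.08, Rac2 of 1.14 and Ncf1 of 1.15, against a median of 1.16 over the 5939 genes with at least 1000 counts on average. Cyba spread most, at 300, 430 and 352, a ratio of 1.44 with replicate 2 the highest. A Poisson dispersion test (chi-square, adjusted over all genes tested) called 4 of the 6 genes as varying beyond counting error, beside 64.1% of 14037 genes. Ncf4 at an adjusted p of 0.124 and Rac1 at 0.424 in this chi-square test were not called. With totals of nuclear-encoded protein-coding genes in place of TMM scaling, Rac1 was called too. The call says that libraries differed and compares no conditions, and at this depth it includes Cybb with its 1.08-fold range. The biological coefficient of variation estimated by edgeR was 0.0917 for Ncf4, 0.0964 for Rac1, 0.103 for Rac2, 0.109 for Ncf1, 0.112 for Cybb and 0.148 for Cyba, beside a median of 0.108 over the 5939 genes with at least 1000 counts on average and 0.214 for all genes in common. Ncf4, Rac1 and Rac2 lay below that median, and Ncf1, Cybb and Cyba above it. These per-gene estimates are drawn toward those of other genes, so they do not follow the ranges alone. Cybb and Ncf1 had ranges below the median of 1.16. Among all 14037 genes the estimates lay at percentiles 1.27 for Ncf4, 6.28 for Rac1 and 14.7 for Rac2. Those of Ncf1, Cybb and Cyba lay at 21.9, 25.1 and 48.4.

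Retained-intron transcripts of Cybb, Ncf1 and Ncf4 were lowest in replicate 2, a direction shared by most transcripts: 73.7% of 839 retained-intron and 74.3% of 11434 protein-coding transcripts had a lower TPM there than the other libraries averaged. Those of Cybb summed to 4.10, 0.860 and 4.34 TPM in replicates 1 to 3, those of Ncf1 to 0.70, 0.25 and 0.82, and those of Ncf4 to 12.2, 6.72 and 8.03. Against the mean of the other libraries, replicate 2 was lower by log2 ratios of -2.30, -1.60 and -0.59 for these transcripts, while the whole genes differed by -0.26, -0.05 and -0.28. The second quantification gave -2.30, -0.66 and -1.16 for the retained-intron transcripts. There those of Ncf4 summed to 5.516, 1.595 and 1.605 TPM, so replicates 2 and 3 were nearly level. The whole genes Cybb, Ncf1 and Ncf4 were lowest in replicate 3 there, at 59.8, 19.5 and 7.99 TPM. Over the same retained-intron transcripts, those that averaged 1 TPM or more and had no library at 0, the median of this log2 ratio was -0.35, and over the protein-coding transcripts it was -0.14. The direction in these 3 genes is therefore no result particular to them. The sizes are not matched, since the background holds single transcripts and the values of these genes are sums without that filter. No retained-intron transcript of Ncf1 averaged 1 TPM, so none is in the background. Malat1, a nuclear RNA, was at 741, 178 and 812 TPM, and the mitochondrial genes together made up 1.80%, 0.376% and 1.41% of TPM. The part of such differences in the retained-intron levels was not tested.

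**Figure D4:**
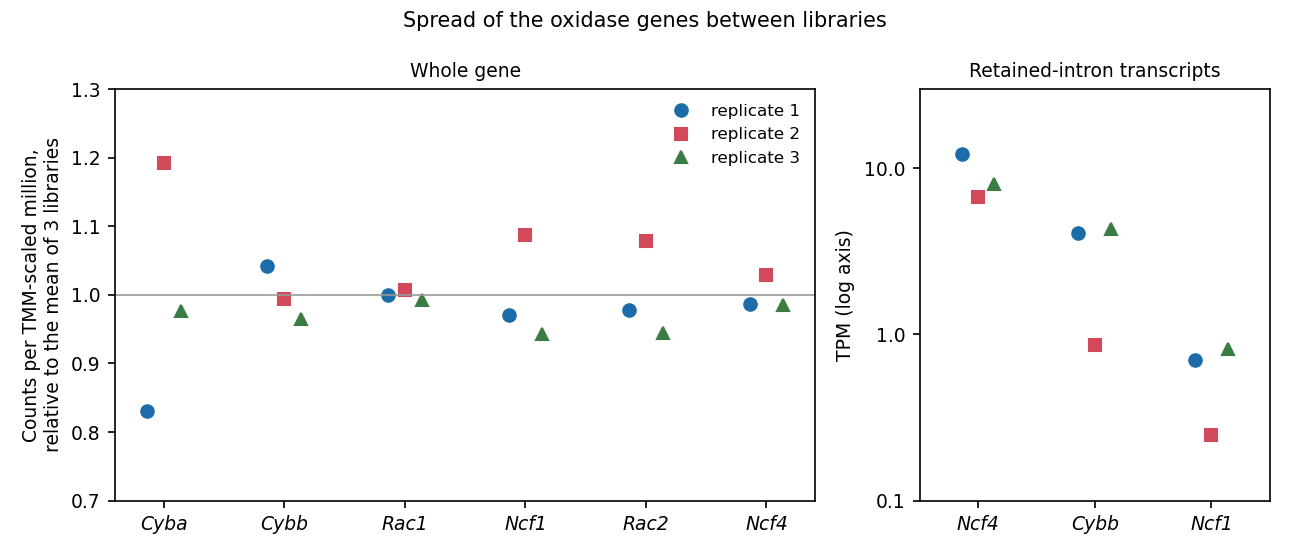
Left, TMM-scaled CPM of each oxidase gene relative to the mean of 3 libraries. Right, summed TPM of the annotated retained-intron transcripts of Ncf4, Cybb and Ncf1 on a log axis, with 1 point per library. Rac1 is almost level and Cyba spreads most, and the retained-intron points of replicate 2 lie lowest for all 3 genes (0.860 TPM for Cybb against 4.10 and 4.34).

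Some other genes had nearly the same course over the 3 libraries, measured as the root mean square difference of their deviations in log2(TPM + 1). Among 3168 other protein-coding genes that averaged 10 TPM or more, the nearest to Cybb was Mex3c (0.00052), to Cyba Msmo1 (0.0030), to Ncf1 Cd180 (0.0022), to Ncf4 Tut7 (0.0031), to Rac1 Ctsh (0.0024) and to Rac2 Paip2 (0.012). Among the oxidase genes themselves Cybb and Ncf4 were closest on this TPM scale, at 0.00479. In TMM-scaled CPM their courses differed. Cybb was at 1685, 1607 and 1561 in replicates 1 to 3, highest in replicate 1. Ncf4 was at 51.4, 53.7 and 51.4, highest in replicate 2. With 3 libraries a course has little room to differ, and 387 genes lay within 0.05 of Cybb and 47 within 0.05 of Rac2.

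Genes that assemble the oxidase or control Rac were mostly present. Of 4 genes in the assembly list, 4 were detected (list median 12.4 TPM). For this and each list below, the share of detected genes over all nuclear-encoded protein-coding genes was 37.6%. Rap1b and Rap1a, which encode Ras-related GTPases, the latter found with the flavocytochrome, were at 172 ± 19.1 and 18.3 ± 2.97 TPM. Cybc1, which encodes the chaperone that NOX2 needs to mature, was at 6.59 ± 0.929 TPM, and the third Rac paralog, Rac3, at 1.49 ± 0.195 TPM (SD, n = 3 each). Of 17 Rac regulators 13 were detected, and the list median was 6.93 TPM. The GDP dissociation inhibitors that hold Rac in the cytosol led, Arhgdia at 169 ± 5.43 and Arhgdib at 86.7 ± 6.22 TPM, followed by the GTPase-activating protein gene Abr at 66.6 ± 8.04 and the exchange factor gene Dock2 at 29.6 ± 2.77. The exchange factor gene Tiam2 at 0.0467 ± 0.0115 TPM and Arhgdig at 0.0133 ± 0.0115 TPM were lowest (SD, n = 3 each).

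Genes for kinases and lipid signals that act on the oxidase were detected in 17 of 19 cases (list median 13.8 TPM). Syk, the tyrosine kinase behind phagocytic receptors, was at 113 ± 12.5 TPM, Pik3r5, a regulatory subunit of phosphoinositide 3-kinase gamma, at 88.4 ± 2.5, and Prkcd, a protein kinase C that phosphorylates p47phox, at 52.0 ± 6.85. Akt1 was at 36.8 ± 1.03 TPM, and the protein kinase C genes Prkca at 0.403 ± 0.0569 and Prkcz at 0.05 ± 0.02 TPM were lowest (SD, n = 3 each). Electron transport by the oxidase leaves protons behind and needs a compensating charge. Of 4 genes for this, 3 were detected: the proton channel gene Hvcn1 at 31.7 ± 2.16 TPM, the potassium channel gene Kcnn4 at 13.9 ± 2.52 and the chloride-proton exchanger gene Clcn3 at 3.00 ± 0.650. Trpm2, a peroxide-sensitive cation channel gene, was at 0.750 ± 0.145 TPM (SD, n = 3 each).

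Most genes for enzymes that supply NADPH, and most for those that remove superoxide and peroxide, were detected as RNA. Of 14 supply genes 13 were detected (list median 15.7 TPM). Taldo1 (53.7 ± 4.22 TPM), Pgd (43.5 ± 2.86) and Tkt (32.8 ± 1.01) of the pentose phosphate pathway and the isocitrate dehydrogenase gene Idh1 (35.1 ± 2.44) were highest. The pathway gene Rpia was at 1.3 ± 0.0872 TPM and the malic enzyme gene Me1 at 0.177 ± 0.0115 TPM (SD, n = 3 each). Of 15 genes for superoxide and peroxide removal 14 were detected (list median 54.1 TPM). They were led by the glutathione peroxidase gene Gpx1 at 329 ± 27.6 TPM, the peroxiredoxin gene Prdx1 at 164 ± 14.5, the mitochondrial superoxide dismutase gene Sod2 at 155 ± 11.5 and Prdx5 at 104 ± 7.77. Prdx3 was at 10.4 ± 0.770 TPM, and the extracellular dismutase gene Sod3 at 0.00333 ± 0.00577 TPM (SD, n = 3 each).

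Genes of other NADPH oxidases were not detected. Of 9 genes for other NOX and DUOX enzymes and their partners, 0 were detected. Noxo1, which encodes the organizer that takes the place of p47phox with NOX1, was at 0.143 ± 0.00577 TPM, Nox1 at 0.0533 ± 0.0153 TPM, and Nox3 at 0.00667 ± 0.00577 TPM (SD, n = 3 each), the last with 0, 3 and 1 counts in replicates 1 to 3. The other 6, Nox4, Duox1, Duox2, Duoxa1, Duoxa2 and Noxa1, had 0 counts in the gene tables. That allows up to 0.0963, 0.0263 and 0.0503 CPM in replicates 1 to 3, for counting error only. In the second quantification Nox4 was not at 0, with a mean of 0.0456 TPM, and Nox1 was at 0.0242. Duoxa1 and Duox1 were at 0.00167 and 0.00151 TPM there. Among 4 other oxidant enzymes of phagocytes, only Nos2, the inducible nitric oxide synthase gene, was detected, at 3.60, 6.10 and 6.54 TPM. The peroxidase genes Mpo at 0.190 ± 0.0954 and Epx at 0.00333 ± 0.00577 TPM were low (SD, n = 3 each), and Lpo had 0 counts.

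**Figure D5:**
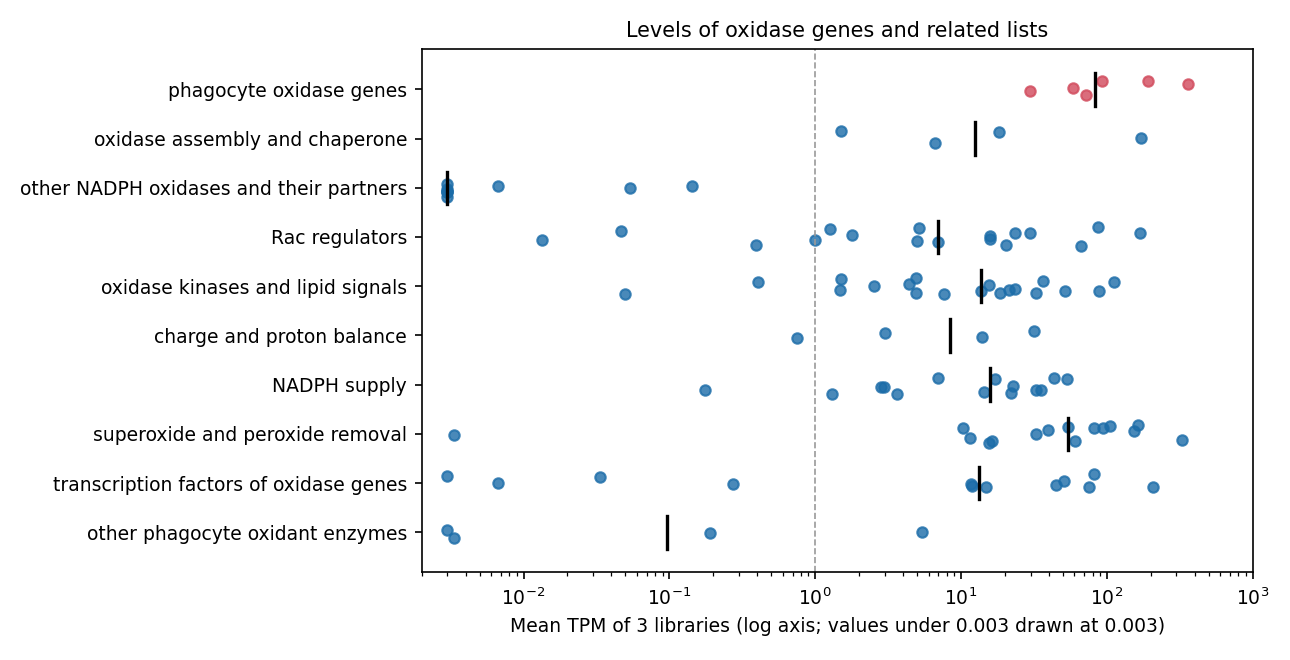
Mean TPM over 3 libraries (log axis) for the 6 oxidase genes in red and for the genes of 9 related lists in blue, with the median of each list as a bar and TPM of 1 as a dashed line. The oxidase genes lie between 29.8 and 362 TPM, and all 9 genes of other NADPH oxidases lie below 1 TPM.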

How the data were processed

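For every library the authors deposited gene and transcript values with RSEM's columns and transcript values with kallisto's, on mm10 with GENCODE M21, per the file headers and the text listing in the deposit. For the aligner, its version and the strand of counting, the entry is: not given in the sources used here. Expected counts (estimated, not whole), TPM, FPKM and the percent of a gene's TPM per transcript are deposited values. Also deposited are each TPM's credibility bounds (a signal that describes 1 library).

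Genes were matched by identifier to GENCODE M21. Ratios of members were taken as log2 of TPM within each library, with no pseudocount. Transcript percents were recomputed from TPM. Expected counts were rounded for the dispersion test (genes with at least 10 counts on average, TMM factors of edgeR 4.0.16 in R 4.3.3, Poisson chi-square with 2 degrees of freedom, Benjamini-Hochberg at 0.05), which was tested on simulated data. DESeq2 1.42.0 gave the alternative size factors. Other steps used Python 3.11.15, numpy 2.4.6 and pandas 2.3.3. TPM divides by effective length, which inflates models near the fragment length. Shared sequence was counted as 31-base stretches of the GENCODE M21 transcripts, and the promoter came from RefSeq.

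The members and lists were chosen with earlier results of these data known. Named genes are all members, every gene of lists of at most 6, otherwise the 4 highest and 2 lowest, 2 highest per marker list, and 1 nearest gene per member. Outside this rule, Ly6g, Nox4, Duox2 and Duoxa1 are named for their 0 counts, Malat1 for its values, and Daglb and Gtf2ird2 for their overlap with members, all chosen after values were seen. 1 symbol matched no gene, being an older name of a listed one, and 2 listed genes are not reported here and enter no list count.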

Additional observations from a re-analysis of the deposited data

How the results depend on the processing

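No paired analysis was possible because the labels give 1 group. The levels depend on the scale. Rescaled to nuclear-encoded protein-coding genes, mean TPM was 857 for Cybb, 1637 for Cyba, 325 for Ncf1, 133.6 for Ncf4, 417 for Rac1 and 267 for Rac2. In the second quantification the means were 79.1, 158, 26.8, 11.2, 38.3 and 33.6 TPM, and in FPKM 362, 692, 137, 56.5, 176 and 113, in the same order. Complete coding transcripts alone, chosen after seeing the data, gave 20.2 TPM for Ncf4, 48.9 for Rac1 and 38.0 for Rac2.

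Among log2 ratios, expected counts, which are not scaled by length, turned Cybb over Cyba to 2.18 and Rac1 over Ncf1 to -0.44, and gave 2.71 for Ncf1 over Ncf4, -0.28 for Rac2 over Rac1, 2.69 for Cybb over Rac1, 0.73 for Ncf1 over Rac2 and 1.98 for Rac2 over Ncf4. The second quantification turned Ncf1 over Rac2 to -0.33 and gave -0.19 for Rac2 over Rac1, 0.52 for Rac1 over Ncf1 and 1.61 for Rac2 over Ncf4. Complete coding transcripts turned Rac1 over Ncf1 to -0.55 and gave 1.82 for Ncf1 over Ncf4, -0.36 for Rac2 over Rac1, 1.94 for Cybb over Rac1 and 0.91 for Ncf1 over Rac2. Expected counts differ by construction in the length scaling, and complete coding transcripts in the transcripts counted. The second quantification sums the same annotated transcripts and is also scaled by length. It divided them otherwise, with 52.3% of the TPM of Rac2 in Rac2-203 against 34.5% in the gene tables' method (means of 3 libraries). Causes were not tested. Pseudocounts of 1 and 0.1 moved the 7 ratios by less than 1 SD.

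The second quantification gave 96.6% to Cybb-201, 93.1% to Ncf1-202, 51.2% to Rac1-204 and 41.6% to Rac2-201. At TPM of at least 10, detected genes numbered 2 in the assembly list, 8 Rac regulators, 10 kinases and lipid signals, 2 for charge balance, 8 for NADPH supply and 0 other oxidant enzymes. All 6 oxidase genes were detected under the 7 alternatives tried. Between 3 and 5 of them varied beyond counting error, with 3 without replicate 2 (beside 38.2% of genes) and 5 with totals of nuclear-encoded protein-coding genes (beside 61.7%). Rac1 was the added call with those totals, and only Ncf4 was not called.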
